A study of Homo sapiens with 7 samples.

Results

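AP-1 is a family of transcription factors that bind DNA as dimers, and 10 genes of this family and of the related small MAF group were followed here in MOLM13, an established human acute myeloid leukemia cell line. They were chosen by name: the JUN genes JUN, JUNB and JUND, the FOS genes FOS, FOSB and FOSL2, the ATF and BATF genes ATF3 and BATF3, and the small MAF genes MAFG and MAFK. All 10 were among the 11408 genes with values, and each had at least 1 CPM (reads scaled to a common library size by the authors) in at least 2 of the 3 control libraries. Poly(A) RNA was sequenced 6 days after the cells were transduced with guide RNAs. The 7 libraries were 2 with ZFP36L2 guide 5, 2 with ZFP36L2 guide 3 and 3 with sgRosa, the non-targeting control guide, all in the same cell line and medium. The guide numbers are those of the deposited columns; the labels number the guides otherwise. How Cas9 was supplied and whether single clones were picked are not given in the sources used here, nor is it stated whether replicates were separate cultures, so p-values measure the spread between these libraries, which may be technical. The question asked by the design is how loss of ZFP36L2 changes gene expression in leukemia cells.

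JUN proteins can pair with each other or with FOS proteins, while FOS proteins do not pair stably among themselves and need a JUN partner to bind the TPA-response element. ATF3 and BATF3 also pair with JUN proteins. The small MAF proteins lack a transactivation domain and bind a longer element, which contains an AP-1 core, together with CNC partners such as NRF2. In monocytes and macrophages AP-1 genes are known as immediate early genes that respond to growth factors, inflammatory signals and stress. ZFP36L2 is a zinc finger protein that attaches to AU-rich stretches of 3′ untranslated regions and promotes decay of the mRNA, and short-lived immediate early mRNAs such as FOS are textbook carriers of such elements.

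The AU-rich stretches of the members are shown because they are the sequence type that ZFP36 proteins bind. The 3′ untranslated regions of all 10 members (GENCODE 29, 1 transcript per gene) were searched on the sense strand for the pentamer ATTTA, the heptamer TATTTAT, which contains it, and the nonamer TTATTTATT, which contains both. The pentamer was found in all 10, against 70.1% of 10555 genes with a 3′ untranslated region. The heptamer was found in 8, against 32.6%, and the nonamer in 3 (FOS, FOSL2 and MAFK), against 8.50%. These shares rise with length, so regions within 20% of a member's own length were counted too. FOS held 5 pentamers in 806 bases, and 7.52% of regions of like length held as many. For the other 9 members that share ran from 25.4% to 74.8%. JUNB and BATF3 held the pentamer without the heptamer. One 30-base window is given for each member with a heptamer, written as DNA on the sense strand with every ATTTA in capitals. The windows lie, in GRCh38, at chr1:58780818-58780847 for JUN, chr19:18279997-18280026 for JUND, chr14:75282060-75282089 for FOS, chr19:45474531-45474560 for FOSB, chr2:28416355-28416384 for FOSL2, chr1:212620704-212620733 for ATF3, chr17:81921788-81921817 for MAFG and chr7:1542851-1542880 for MAFK. JUN, JUND and MAFG are on the minus strand and the others on the plus strand.
FOS: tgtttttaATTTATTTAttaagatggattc
FOSL2: ATTTAttttattATTTAttttaaatgttta
MAFK: ttccatttcattATTTAttttttgtgctgc
JUN: ttgcttatgaatATTTAtaacagcattctt
JUND: cgattctgccctATTTAtgtttctactcgg
FOSB: cattccttagctATTTAtccctttcctggt
ATF3: aaaatattacttATTTAtcctagtattcct
MAFG: gagctgcagagtATTTAtaaaactgtcttt
In FOS the 2 pentamers overlap by 1 base, while in MAFK, JUN, JUND, FOSB, ATF3 and MAFG a single pentamer stands in the window. Over all genes, 16.6% of those with the heptamer rose with both guides together, against 23.7% of those without it. The regions with the heptamer had a median GC content of 38.1%, against 45.7% without it, so the motif and base composition cannot be told apart in this count.

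RefSeq promoters (GRCh38.p14, 250 bases before to 50 after the start) were matched for 8 of the 10 members (all but BATF3 and MAFK), with 2 starts for ATF3, and 9 windows in all. They were searched on both strands for the TPA-response element TGACTCA, the cyclic AMP response element TGACGTCA and the variant TGACATCA known from the JUN promoter. TGACATCA was found in JUN, beginning 67 bases before the start, and in the upstream of the 2 ATF3 windows, 123 bases before the start, against 2.61% of 35116 promoters. These windows are printed because JUN and ATF3 share the octamer, in capitals, and encode proteins that pair with each other. The JUN window is chr1:58783998-58784297 on the minus strand and the ATF3 window chr1:212565157-212565456 on the plus strand.
JUN promoter: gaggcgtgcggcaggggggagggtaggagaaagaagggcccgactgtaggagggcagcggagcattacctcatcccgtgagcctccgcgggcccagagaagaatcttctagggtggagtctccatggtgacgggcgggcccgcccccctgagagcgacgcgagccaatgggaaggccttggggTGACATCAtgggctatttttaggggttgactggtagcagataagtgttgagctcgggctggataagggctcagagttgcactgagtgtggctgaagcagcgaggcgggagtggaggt
ATF3 promoter: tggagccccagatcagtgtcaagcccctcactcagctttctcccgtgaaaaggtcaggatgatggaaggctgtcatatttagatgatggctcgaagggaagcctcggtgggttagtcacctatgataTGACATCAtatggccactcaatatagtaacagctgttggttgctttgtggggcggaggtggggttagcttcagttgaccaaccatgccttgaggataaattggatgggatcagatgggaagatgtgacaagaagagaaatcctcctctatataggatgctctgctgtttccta
TGACGTCA was found in JUND, 200 bases before the start, against 1.85% of promoters, and TGACTCA in FOSL2, 5 bases into the transcript, against 4.95%. The CArG box, the core of the serum response element, was found in none of the 9 windows, against 1.29% of promoters. The windows end 250 bases before the start, so an element further upstream, in FOS or another member, could not be found by this search. A match, or its lack, describes the letters of these windows and is not a measured site.

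In the genes analysed, the guide libraries held 28088053 to 38807816 reads and the controls 16907955 to 25164359, so every control was shallower than every guide library. By the authors' scaling, 1 read stood for 0.0261 to 0.0343 CPM in guide libraries and for 0.0409 to 0.0540 CPM in controls. ZFP36L2 mRNA was not lower under its guides: it stood at 733.8 and 689.7 CPM with guide 5 and at 1132 and 1353 CPM with guide 3, against 337.2, 333.8 and 310.8 CPM in controls, a log2 change of 1.52 ± 0.16 (SE; limma, Benjamini-Hochberg adjusted p = 1.28e-05). Loss of the protein was not measured, and every direction is that of the libraries as labelled. Of the 12 monocyte and macrophage markers, 10 were tested and all 10 rose with both guides against control, with a summed level of 10512 to 11391 CPM with guide 5 and 16707 to 20999 CPM with guide 3, against 4144 to 7075 CPM in controls. CD14, the endotoxin co-receptor, had 90.3 and 69.9 CPM with guide 5 and 181.1 and 160.1 CPM with guide 3, against 0.514 to 2.29 CPM in controls. Of 9 markers of myeloid blasts, 7 were tested, 3 rose and 2 fell, with a summed level of 2105 to 3009 CPM with the guides, against 1933 to 2356 CPM in controls. Of 9 lymphoid markers, 2 were tested, NKG7, which rose, and CD3D, which fell, and they summed to 78.4 to 103.7 CPM with the guides, against 38.0 to 52.1 CPM in controls. None of the 9 markers of red cells and megakaryocytes was among the genes analysed. In bulk RNA, a change in the share of cells of a type and a change in RNA per cell cannot be told apart, and the part of the monocyte markers in the results that follow was not tested.

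With both ZFP36L2 guides against control, all 10 AP-1 genes rose and none fell. Over all genes, 20.9% rose and 20.6% fell, so that 50.3% of the calls were higher, but 41.3% with quantile normalization. The median log2 change of the 10 was 0.98, against -0.05 over all genes tested. The changes ran from 0.71 for FOS to 2.74 for JUN in this fit, and from 0.05 for JUND to 2.41 for JUN after a correction for GC content and length. In 7 of the 10 genes every guide library was above every control library, against 19.8% of all genes. The 3 exceptions were FOSB, ATF3 and BATF3. Calls were made by limma on log2(CPM + 0.5) with p adjusted by Benjamini-Hochberg over all genes at a threshold of 0.05, and the + 0.5 understates the change of low genes. After that correction, of each library for transcript GC content and length, 8 of the 10 rose and none fell, JUND and FOSB being not past the threshold. Over all 11408 genes the correction gave 2550 rises and 2150 falls. With quantile normalization 7 of the 10 rose and none fell, FOSB, ATF3 and BATF3 being not past the threshold. Over all genes that setting gave 2368 rises and 3369 falls.

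**Figure D1:**
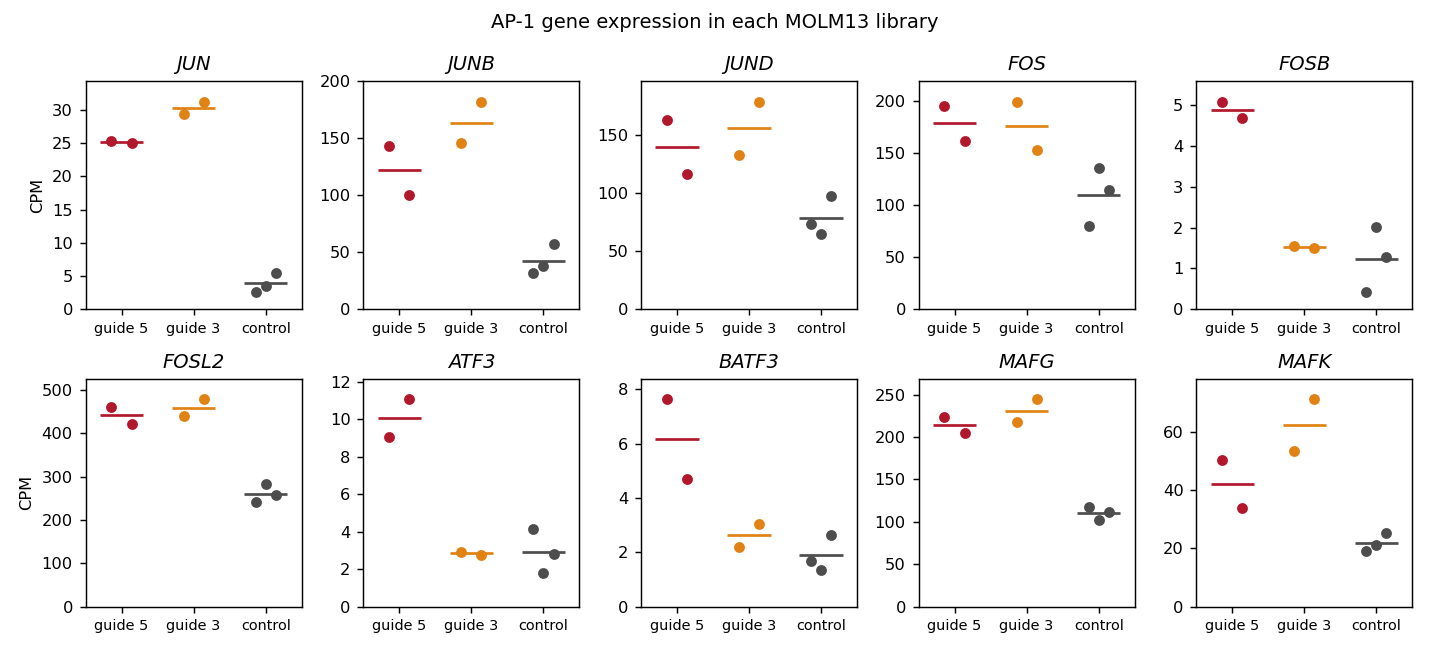
Expression of the 10 AP-1 genes in CPM (y axis from 0, own scale per gene) in each library of guide 5, guide 3 and control; points are libraries and bars are group means. In JUN, JUNB, JUND, FOS, FOSL2, MAFG and MAFK all guide libraries lie above all controls, while in FOSB, ATF3 and BATF3 the guide 5 libraries alone lie above the other 5.

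JUN, the founding member and the partner of FOS, ATF3 and BATF3, had the largest joint change of the 10. Its level was 25.4 and 25.0 CPM with guide 5 and 29.4 and 31.2 CPM with guide 3, against 2.65, 3.51 and 5.44 CPM in controls. The guide libraries lay close together and far above the highest control. The log2 change was 2.74 ± 0.23 (SE), a 6.68-fold rise (limma, adjusted p = 1.67e-06). Ranked by level per kilobase of exon among all genes, JUN stood at percentile 51.4 with the guides and at percentile 13.7 in controls. JUN is a gene with a single exon at chr1:58780788-58784327 (GRCh38, minus strand).

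JUNB, which pairs with the same partners as JUN and is abundant in myeloid cells, rose too. It had 143.3 and 100.7 CPM with guide 5 and 145.5 and 182.1 CPM with guide 3, against 32.1, 37.5 and 57.1 CPM in controls. The lowest guide library was still well above the highest control. Its log2 change was 1.76 ± 0.22 (limma, adjusted p = 6.17e-05), and 1.06 after the GC and length correction. An exon of HOOK2 lies over JUNB on the other strand. Whether the counting used strand is not given in the sources used here.

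JUND, the JUN gene that resting cells express broadly, moved less. Its level was 163.0 and 116.4 CPM with guide 5 and 132.8 and 178.7 CPM with guide 3, against 73.6, 64.8 and 97.3 CPM in controls. The groups did not overlap. The log2 change was 0.91 ± 0.20 (limma, adjusted p = 0.00394), but 0.05 after the GC and length correction (adjusted p = 0.781). JUND has the most GC-rich transcript of the 10, at 69.7%, followed by JUNB at 64.9% and MAFK at 63.4%. Among the 3 JUN genes, the ratio of JUNB to JUND per kilobase of exon was 0.900 and 0.885 with guide 5 and 1.12 and 1.04 with guide 3, against 0.446, 0.593 and 0.601 in controls. The ratio was higher in every guide library than in any control.

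FOS, the immediate early partner of JUN, rose with both guides against control. It had 195.1 and 161.9 CPM with guide 5 and 199.1 and 152.7 CPM with guide 3, against 79.5, 135.5 and 114.0 CPM in controls. The nearest guide and control libraries, 152.7 and 135.5 CPM, were close. Its log2 change was 0.71 ± 0.20 (limma, adjusted p = 0.0148). The call was lost without control replicate 1 (adjusted p = 0.0762), without guide 3 replicate 1 (adjusted p = 0.0621) and without guide 5 replicate 1 (adjusted p = 0.0668). After the GC and length correction the log2 change was 0.60 (adjusted p = 0.0108).

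FOSL2, also called FRA2, which is more stably expressed than FOS in many cells, was the member with the most reads. It stood at 461.5 and 422.4 CPM with guide 5 and at 439.6 and 478.0 CPM with guide 3, against 241.0, 283.1 and 257.9 CPM in controls. The groups were tight and apart, with a log2 change of 0.79 ± 0.16 (limma, adjusted p = 0.00203). It was past the threshold under all 21 alternatives, between 0.63 and 0.85.

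FOSB, an inducible FOS gene, was the lowest of the 10 per kilobase of exon. Its level was 5.09 and 4.69 CPM with guide 5 and 1.56 and 1.49 CPM with guide 3, against 0.432, 2.01 and 1.27 CPM in controls. Those values rest on 190 and 137 reads with guide 5 and 51 and 57 with guide 3, against 8, 43 and 31 in controls. The guide 3 libraries lay within the control range and the guide 5 libraries above it. For both guides together the log2 change was 1.04 ± 0.31 (limma, adjusted p = 0.0179), and it lost the call without control replicate 1 (log2 change 0.65, adjusted p = 0.0690), without guide 5 replicate 1 (adjusted p = 0.0556), with quantile normalization (log2 change 0.46, adjusted p = 0.117), after the GC and length correction (log2 change 0.65, adjusted p = 0.0923) and with 1 mean fitted for both guides (adjusted p = 0.0700). With guide 5 alone it was 1.75 ± 0.37 (adjusted p = 0.00559) and with guide 3 alone 0.33 ± 0.37 (adjusted p = 0.478), and the difference between the guides did not pass the threshold.

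ATF3, a stress-induced factor that can act as a repressor, showed the same arrangement of libraries. It had 9.08 and 11.1 CPM with guide 5 and 2.93 and 2.77 CPM with guide 3, against 4.16, 1.82 and 2.82 CPM in controls. Guide 3 lay inside the control range. The log2 change of both guides together, 0.85 ± 0.26 (limma, adjusted p = 0.0193), is thus the mean of 1.67 ± 0.31 for guide 5 (adjusted p = 0.00209) and 0.02 ± 0.31 for guide 3 (adjusted p = 0.962). The joint call was lost without guide 3 replicate 1, guide 3 replicate 2 or guide 5 replicate 2, at log2 changes of 0.83, 0.86 and 0.78. Each of these fits leaves 1 library of that guide. With quantile normalization the joint log2 change was 0.54 (adjusted p = 0.117), and with 1 mean fitted for both guides the adjusted p was 0.130.

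BATF3, which pairs with JUN proteins and is known for its role in classical dendritic cells, had its highest values with guide 5 too. Its level was 7.63 and 4.69 CPM with guide 5 and 2.20 and 3.06 CPM with guide 3, against 1.67, 1.36 and 2.66 CPM in controls. One guide 3 library was above the highest control and the other was not. The log2 change was 1.48 ± 0.32 for guide 5 (limma, adjusted p = 0.00631) and 0.41 ± 0.32 for guide 3 (adjusted p = 0.314). For both guides together it was 0.94 ± 0.27 (adjusted p = 0.0142), and it was not past the threshold without guide 3 replicate 2 (adjusted p = 0.0625), without guide 5 replicate 1 (adjusted p = 0.0797) or with quantile normalization (log2 change 0.55, adjusted p = 0.0923).

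MAFG, a small MAF protein that pairs with NRF2 and BACH1, rose evenly. It had 223.6 and 204.4 CPM with guide 5 and 217.6 and 244.3 CPM with guide 3, against 117.3, 102.1 and 111.3 CPM in controls. All guide libraries were near the same level, with a log2 change of 1.01 ± 0.16 (limma, adjusted p = 0.000358), and 0.61 after the GC and length correction. Exons of SIRT7 on the same strand overlap MAFG, so reads could be shared between them.

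MAFK, the other small MAF gene of the set, had 50.2 and 33.9 CPM with guide 5 and 53.3 and 71.1 CPM with guide 3, against 19.2, 21.1 and 25.5 CPM in controls. The groups did not overlap, and the guide libraries were spread more widely than those of MAFG. The log2 change was 1.19 ± 0.20 (limma, adjusted p = 0.000727), and 0.57 after the correction. TMEM184A overlaps an exon of MAFK on the other strand.

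**Figure D2:**
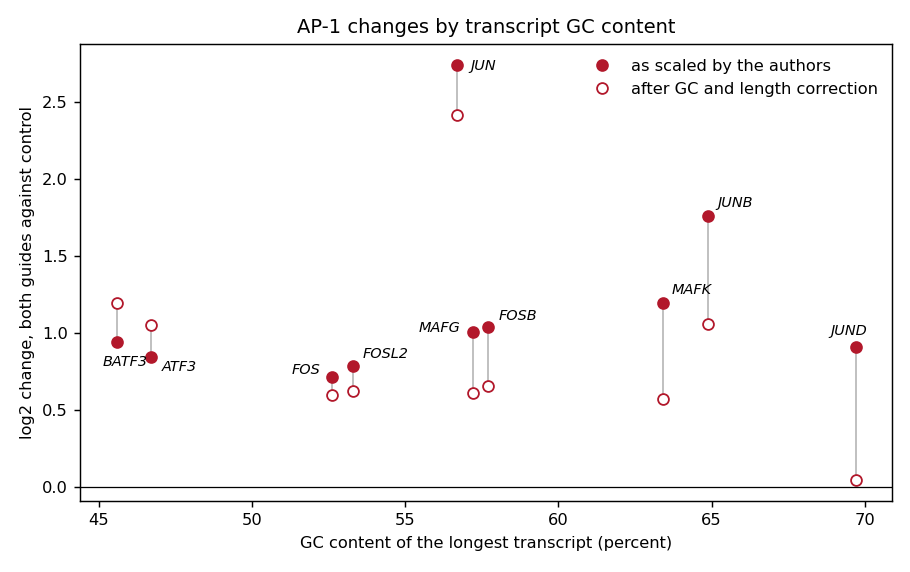
The log2 change of both guides against control (y axis) for each AP-1 gene against the GC content of its longest GENCODE transcript in percent (x axis), as scaled by the authors (filled) and after a correction for GC content and length (open). JUND, at 69.7% GC, falls to 0.05, while JUN stays at 2.41 and BATF3, at 45.6% GC, moves up to 1.20.

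Each guide was also set against the same 3 controls, so the 2 comparisons share them. With guide 5, 9 of the 10 rose and none fell, where 12.2% of all genes rose and 7.68% fell. The exception was FOS, at 0.73 ± 0.24 (limma, adjusted p = 0.0520). With guide 3, 7 of the 10 rose and none fell, where 21.2% of all genes rose and 18.9% fell. The exceptions were FOSB, ATF3 and BATF3. Among all genes called, 61.4% were higher with guide 5, but 46.6% with quantile normalization, and 52.9% with guide 3, but 41.9% with quantile normalization. The authors' deposited table of edgeR results gives the same counts of members at a false discovery rate of 0.05, 9 for guide 5 and 7 for guide 3, where it calls 11.9% and 20.5% of genes higher and 7.81% and 19.4% lower. In the authors' deposited table, FOS with guide 5 has a false discovery rate of 0.0575. The counts depended on single libraries. With guide 5 without its replicate 1, and with guide 3 without its replicate 2, fewer members rose, and fewer of all genes rose or fell. In these fits the lone library of that guide is assumed to vary like the others.

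The guides were then set against each other, a comparison free of the controls except for the estimate of the spread. No member passed the threshold in either direction, where 0.351% of all genes were higher with guide 5 and 0.0614% lower, 85.1% of those calls being higher, or 74.3% with quantile normalization, 74.6% after the GC and length correction and 62.0% on the FPKM scale. At an unadjusted p under 0.05, 3 members were higher with guide 5 and 0 lower, but the share over all genes at that cut was not counted. With voom and limma on the recovered reads 1 member was called higher, ATF3, where 51 of 11408 genes were higher and 13 lower. ATF3 had the largest difference, a log2 change of 1.65 ± 0.33 (95% interval 0.93 to 2.38; limma, adjusted p = 0.0586). FOSB differed by 1.41 ± 0.40 (0.54 to 2.29; adjusted p = 0.227) and BATF3 by 1.07 ± 0.35 (0.32 to 1.82; adjusted p = 0.326). In these 3 genes both guide 5 libraries were above the other 5 libraries, against 4.14% of all genes. Among 11408 genes ordered from the highest difference down, ATF3 was at rank 27, FOSB at rank 43 and BATF3 at rank 98. MAFK leaned the other way, at -0.57 ± 0.27 (-1.15 to 0.003; adjusted p = 0.489). For JUN the interval was -0.91 to 0.39, for JUNB -1.06 to 0.18, for JUND -0.73 to 0.41, for FOS -0.55 to 0.60, for FOSL2 -0.50 to 0.39 and for MAFG -0.55 to 0.33. These intervals leave room for differences in either direction. Beside these values, the summed monocyte markers were lower with guide 5 than with guide 3, in the ranges given above. Most of that sum was LYZ, which did not pass the threshold between the guides (log2 change -0.74, limma, adjusted p = 0.442). Of the 10 markers tested, 3 were called lower with guide 5 and 0 higher, where 0.0614% of all genes were called lower. They were FCN1, S100A8 and S100A9, at log2 changes of -1.6, -1.9 and -2.2. The part of the monocyte markers in the result was not tested.

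**Figure D3:**
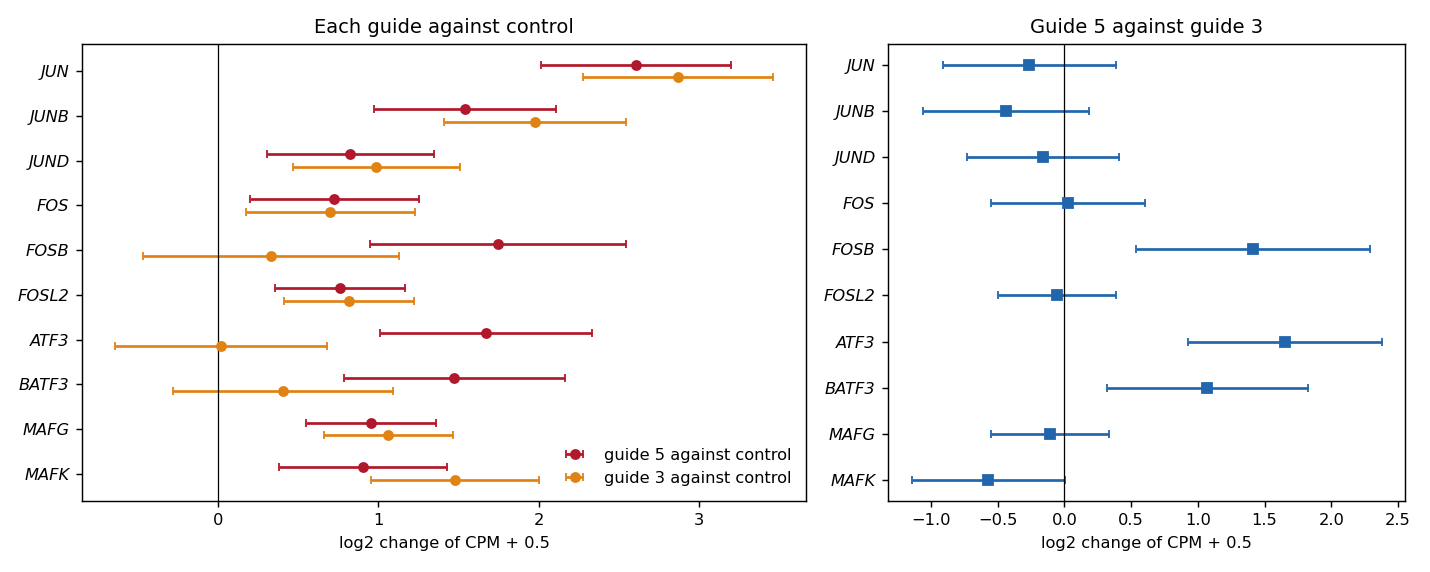
The log2 change of CPM + 0.5 with its 95% interval for each AP-1 gene, with guide 5 and guide 3 against control (left) and guide 5 against guide 3 (right). FOSB, ATF3 and BATF3 lie at 1.75, 1.67 and 1.48 with guide 5 but at 0.33, 0.02 and 0.41 with guide 3, while the intervals of the other 7 in the right panel include 0.

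ATF3 and BATF3 are neighbours on chromosome 1, at 212565334 to 212620777 (plus strand) and 212686418 to 212699985 (minus strand), with 65640 bases between them. Of the 12 genes analysed within 500000 bases of the pair, ATF3 and BATF3 included, none had a called difference between the guides, and the 10 others had unadjusted p from 0.129 to 0.676. With guide 5 against control, ATF3 and BATF3 rose, DTL and FLVCR1 fell, by 0.79 and 1.07 on the log2 scale (adjusted p = 0.0162 and 0.00378), and the other 8 did not pass the threshold.

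**Figure D4:**
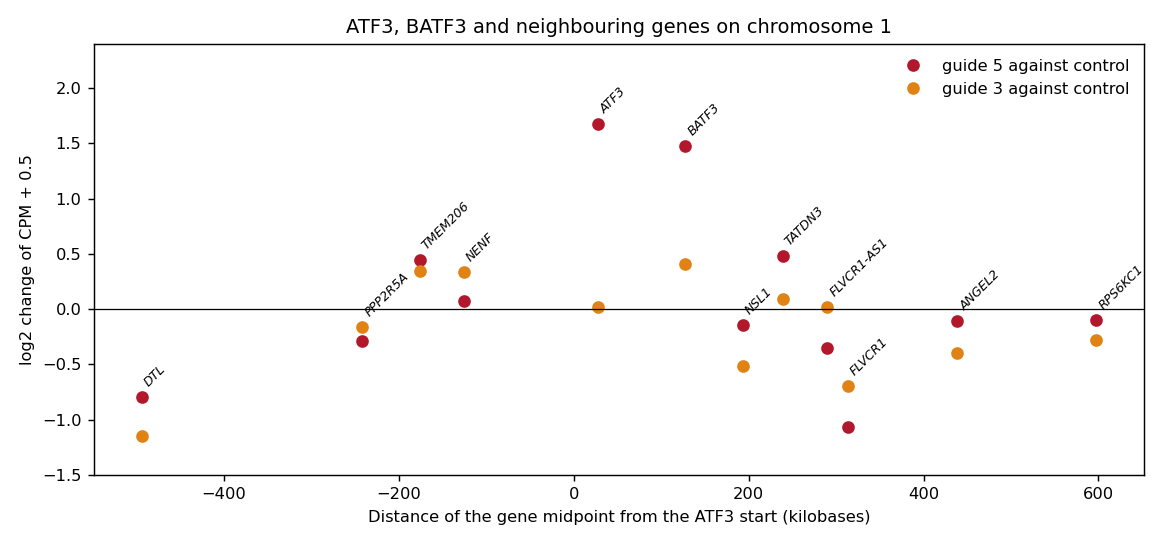
The log2 change of CPM + 0.5 with each guide against control for the 12 genes around ATF3 and BATF3, by distance of the gene midpoint from the ATF3 start in kilobases. ATF3 and BATF3 stand at 1.67 and 1.48 with guide 5, above the 10 other genes and above their own values of 0.02 and 0.41 with guide 3.

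Levels of different genes can be compared per kilobase of exon (CPM divided by the length of all exons together). On that scale JUND (74.98), JUNB (67.0), FOSL2 (61.7) and FOS (55.1) led with guide 5, neighbours in that order overlapping between libraries. With guide 3 the order was JUNB (90.0), JUND (83.6), FOSL2 (64.1) and FOS (54.3), with JUNB and JUND overlapping, and FOSL2 and FOS. In controls JUND (42.2), FOSL2 (36.4), FOS (33.9), JUNB (23.2) and MAFG (21.1) followed each other, each overlapping the next. JUN stood at 7.12 with guide 5 and 8.57 with guide 3, against 1.09 in controls, where its libraries overlapped those of ATF3, at 0.73. FOSB was last in each group, at 0.88 with guide 5 and 0.27 with guide 3, against 0.22 in controls.

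The summed level of the 10 genes per kilobase of exon was 358.1 and 286.0 with guide 5 and 337.9 and 383.6 with guide 3, against 144.6, 163.4 and 185.3 in controls. JUN made up 2.002 to 2.47% of that sum in the guide libraries, against 0.517 to 0.830% in controls. The share of JUNB was 19.3 to 26.1% with the guides, against 12.2 to 16.9% in controls. Both shares were higher in every guide library than in any control. FOS, whose level rose, took 12.3 to 18.2% of the sum with the guides, against 17.0 to 25.6% in controls, and these ranges overlap. The shares of JUND and MAFG overlapped too. Measured as a ratio per kilobase of exon, JUN was 0.119 to 0.187 of FOS with the guides, against 0.0237 to 0.0437 of FOS in controls. JUNB was 7.83 to 11.3 times JUN with the guides, against 20.4 to 23.6 times JUN in controls.

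**Figure D5:**
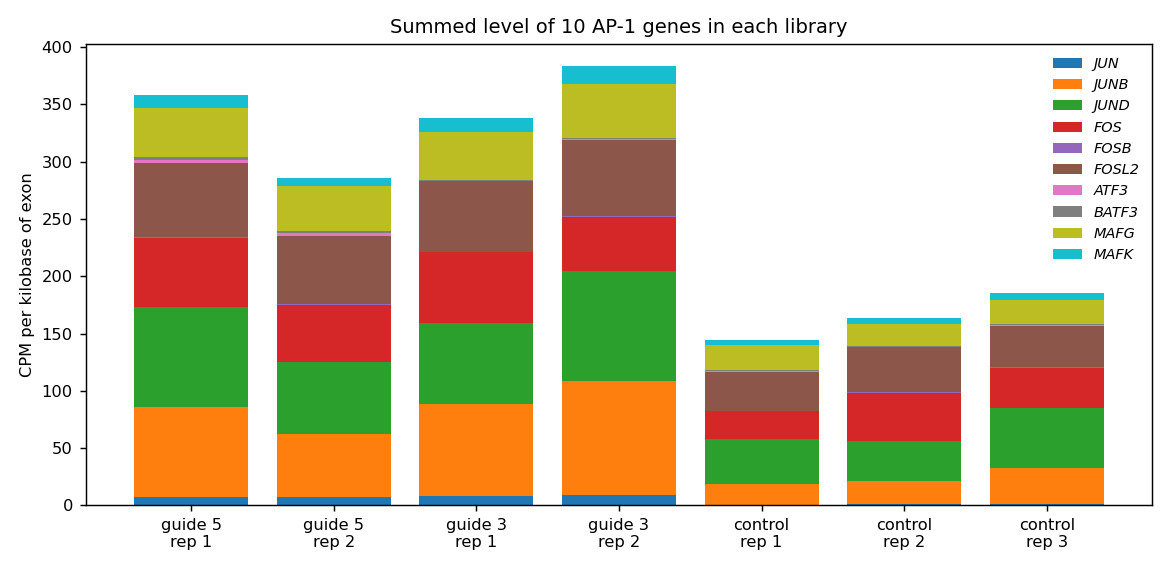
Summed level of the 10 AP-1 genes in each library in CPM per kilobase of exon, stacked by gene, for guide 5, guide 3 and control. The guide bars reach 286.0 to 383.6 and the control bars 144.6 to 185.3, and the JUNB segment is the one that widens most.

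Of 11 other AP-1 and MAF genes, 9 were tested, of which 5 rose and 1 fell with both guides together, with a median log2 change of 0.98. For this list and those below, 20.9% of all genes rose and 20.6% fell with both guides together. After the GC and length correction 2550 of 11408 genes rose and 2150 fell. MAFF, the small MAF gene that is no member, averaged 8.25 ± 0.53 CPM with the guides and 1.44 ± 1.17 CPM in controls (SD, n = 4 and 3), a log2 change of 2.33 ± 0.32 (SE; limma, adjusted p = 0.000131). JDP2, a repressor that pairs with JUN, had 40.0 and 36.0 CPM with guide 5 and 19.3 and 18.4 CPM with guide 3, against 8.53, 11.6 and 12.0 CPM in controls, all guide libraries above all controls. BATF2 had 2.12 and 2.19 CPM with guide 5 and 1.28 and 1.41 CPM with guide 3, and at most 0.0409 CPM in controls, where 1 read was counted in 1 library. ATF2, a JUN partner, fell, with a log2 change of -0.55 (limma, adjusted p = 0.0344), but -0.01 after the GC and length correction (adjusted p = 0.914). FOSL1, BATF and ATF7 did not pass the threshold. After the correction 4 of the list rose and 1 fell, BATF, at -0.59 (adjusted p = 0.00373).

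Among 25 further partners of the CREB, ATF, C/EBP and CNC groups, 23 were tested, 8 rose and 5 fell, with a median log2 change of 0.26, but 11 rose and 1 fell after the GC and length correction. CEBPB, a myeloid C/EBP factor, averaged 40.0 ± 5.50 CPM with the guides and 6.62 ± 3.27 CPM in controls, a log2 change of 2.60 ± 0.27 (limma, adjusted p = 1.05e-05). CEBPD changed by 1.64, CEBPE by 1.45 and DDIT3, the stress-induced factor CHOP, by 1.22; after the correction CEBPD stood at 0.77, CEBPE at 0.82 and DDIT3 at 1.28. NFE2L2, which encodes NRF2, the partner of the small MAF proteins, did not pass the threshold (log2 change 0.00). XBP1 was the single gene of this list that differed between the guides (log2 change 1.33, limma, adjusted p = 0.0109). It stood at 442.4 and 506.3 CPM with guide 5 and 188.1 and 188.5 CPM with guide 3, against 471.9, 404.8 and 418.5 CPM in controls. Against control it fell with guide 3 (log2 change -1.19, adjusted p = 0.000473) and did not pass the threshold with guide 5 (0.14, adjusted p = 0.628). XBP1 was named after its values were seen.

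Of 27 genes of the MAP kinase cascade, whose kinases phosphorylate AP-1 proteins, 26 were tested, 9 rose and 1 fell, with a median log2 change of 0.30. After the GC and length correction 11 rose and 1 fell. MAPK3, which encodes ERK1, averaged 58.9 ± 7.08 CPM with the guides and 20.7 ± 5.04 CPM in controls, a log2 change of 1.51 ± 0.20 (limma, adjusted p = 9.47e-05). MAP2K3 changed by 1.02, MAP2K2 by 0.94 and MAPK7 by 0.85. After the correction MAPK3 stood at 0.94, MAP2K3 at 0.53, MAP2K2 at 0.40 and MAPK7 at 0.40, all past the threshold. With guide 3 alone 10 of the 26 rose and 1 fell, where 21.2% of all genes rose and 18.9% fell. With guide 5 alone 2 rose, MAPK3 and MAP2K2, and 1 fell, where 12.2% of all genes rose and 7.68% fell. MAP2K3 and MAPK7 were not past the threshold with guide 5 (limma, adjusted p = 0.0733 and 0.0658). With both guides together the JUN kinase genes MAPK8 and MAPK9 did not pass the threshold, at -0.19 and -0.21, but MAPK8 was at 0.32 after the correction (adjusted p = 0.0251). Of 15 MAP kinase phosphatases and feedback inhibitors 13 were tested, 3 rose (DUSP1, DUSP7 and DUSP6, by 1.02, 0.65 and 0.52) and SPRED1 fell (-0.95). Over all genes 20.9% rose and 20.6% fell, so the count of rises was near the share over all genes. After the correction DUSP7 was at 0.20 and not past the threshold (adjusted p = 0.182), SPRED1 was at -0.47, and 5 of the list rose and 1 fell.

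Of 11 SRF and partner genes, which drive FOS transcription through the serum response element, all 11 were tested. With both guides together 2 rose (ETS1 by 0.84 and SRF by 0.64) and 2 fell (MEF2C by 0.71 and ELK4 by 0.65). Both counts were near the shares over all genes, 20.9% higher and 20.6% lower. After the GC and length correction 3 rose and none fell: SRF was at 0.09 (adjusted p = 0.586), MEF2C at -0.23 (adjusted p = 0.132) and ELK4 at -0.19 (adjusted p = 0.119), while ETS1 was at 1.21. Of 15 genes of AP-1 protein turnover and cofactors 14 were tested, of which 2 rose, JDP2 among them, and 3 fell, among them FBXW7 (-0.65) and RFWD2 (-0.48), which encode ubiquitin ligases. These counts too were near or below the shares over all genes. After the correction 2 rose and 5 fell, with FBXW7 at -0.42 and RFWD2 at -0.37. FBXW7 and RFWD2 are known to target JUN protein, and protein was not measured here.

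Of 22 textbook AP-1 target genes 19 were tested, 17 rose and none fell, with a median log2 change of 1.54, and the same counts were found after the GC and length correction. CCL2, a monocyte chemokine, averaged 27.3 ± 3.16 CPM with the guides and 0.418 ± 0.245 CPM in controls, a log2 change of 4.95 ± 0.23 (limma, adjusted p = 9.07e-09). IL1B changed by 4.15 and ITGAX, which encodes the integrin CD11c, by 3.41. SPP1 had 5.14 and 5.82 CPM with guide 5 and 9.15 and 7.19 CPM with guide 3, and no read in any control. CD44 and MT2A did not pass the threshold. Several of these genes are also expressed by monocytes, whose markers rose in the same libraries, as given above. VEGFA, named after its values were seen, was the gene of this list that differed between the guides, at 374.5 and 350.6 CPM with guide 5 and 127.1 and 126.7 CPM with guide 3 (log2 change 1.51; limma, adjusted p = 0.0495).

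Of 16 genes known as small MAF and NRF2 targets 15 were tested, 9 rose and 2 fell, with a median log2 change of 0.93. HMOX1, which encodes heme oxygenase, averaged 14.9 ± 4.57 CPM with the guides and 1.30 ± 0.14 CPM in controls, a log2 change of 3.05 ± 0.21 (limma, adjusted p = 2.26e-07). SLC7A11, the cystine transporter, changed by 2.47, and the ferritin genes FTH1 and FTL by 2.21 and 1.52. GCLC and GCLM, which encode the subunits of the enzyme that starts glutathione synthesis, fell, by 0.61 and 0.67 on the log2 scale, but after the GC and length correction GCLC was at -0.29 (adjusted p = 0.0427) and GCLM at -0.16, not past the threshold (adjusted p = 0.325). Of 22 other immediate early genes 16 were tested, 12 rose and none fell, with a median log2 change of 1.05. KLF2 changed by 3.54 ± 0.29, EGR2 by 3.28 ± 0.23, BTG2 by 2.02 ± 0.17 and IER3 by 1.80 ± 0.17. EGR1, NR4A2, MYC and PTGS2 did not pass the threshold, at -0.15, -0.22, 0.05 and 0.59. After the correction 13 of the list rose, and PTGS2 was at 1.11 (adjusted p = 0.0461).

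Over the 7 libraries, the genes whose pattern was nearest to that of JUN were GRINA, VWF and NAPA, and those nearest to FOS were GNA11, CHI3L2 and DNAJB12. Nearness is the Euclidean distance between log2(CPM + 0.5) values, centred and scaled to unit SD in each gene, and was 0.189, 0.201 and 0.230 for JUN and 0.0856, 0.414 and 0.457 for FOS. With 7 libraries in 3 groups, many genes that differ between guides and controls lie near JUN, and this is a description of these libraries.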

How the data were processed

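Per the labels' protocols, poly(A) RNA of MOLM13 cells was made into directional libraries and sequenced single-end. The submitters' processing notes list limma, edgeR, HTSeq and STAR 2.5.3 and the builds hg38 and GRCh38.p7, with no roles or parameters. The authors' deposited tables give FPKM per library, and group mean CPM (a score in normalized reads), log2 fold changes, p-values and false discovery rates for each guide. Of 11581 genes, 173 have no FPKM and were left out.

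The deposited FPKM are per kilobase of whole gene span, introns included: in all 11408 genes, a group's mean CPM divided by its mean FPKM came out as whole bases (within 0.01). Multiplied by this length, FPKM gave whole reads for 100% of values (within 0.01 reads). Tests ran on the CPM recovered in this way, since a pseudocount on FPKM per gene span weighs on long genes such as ATF3. limma 3.58.1 in R 4.3.3 was fitted to log2(CPM + 0.5), with a mean for each guide and control and a variance trend (residual degrees of freedom 4, prior 8.78). All tests were two-sided. The filter of 1 CPM in 2 libraries removed no gene. The fit was tested on simulated data. Tables were made with Python 3.11.15, pandas 2.3.3 and numpy 2.4.6, and figures with matplotlib 3.10.9. Reads carry no molecular identifiers, so depth covers counting error only.

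The members, lists and tests were chosen with earlier results of these data known. Named were all members, ZFP36L2, up to 4 called genes of each other list with the largest change, and the 3 genes nearest to JUN and to FOS. Some genes that this rule names are not reported here. Alternatives were other pseudocounts, filters, scalings, a GC and length correction (loess on each library), a replicate block, library weights, other arms in the fit, voom on recovered reads, the FPKM scale and leaving out each library. GENCODE 29 gave coordinates, exons and 3′ regions, RefSeq the promoters.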

Additional observations from a re-analysis of the deposited data

How the results depend on the processing

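With both guides together, 7 to 10 members rose and none fell under all 21 alternatives; 7 rose with quantile normalization. On the FPKM scale 6783 genes and 7 members were tested, and 1526 genes rose and 1339 fell; without 1 library each, 1608 to 3076 genes rose and 1110 to 2951 fell. Without 1 library each, 4 to 7 members rose with guide 3, 3 to 10 with guide 5, and 0 to 2 were higher with guide 5 than with guide 3. In that last comparison 1 member was higher with a pseudocount of 2 CPM, without a variance trend and with voom, and 2 with quantile normalization. With library weights and with the compared arms alone 3 were higher and 1 (MAFK) was lower. Calls over all genes grew there too. They were 40 higher and 7 lower in the fit used above, and 113 and 39 with quantile normalization. With a pseudocount of 2 CPM they were 52 and 21, without a variance trend 46 and 15, and with voom 51 and 13. With library weights they were 908 higher and 1366 lower, and with the compared arms alone 709 and 1141. The replicate numbers do not pair the libraries (correlations of same-numbered deviations of -0.49 to 0.37). With a replicate block, 10 members rose with both guides together, 7 with guide 3 and 10 with guide 5, and 2 were higher with guide 5 than with guide 3. With the numbers of guide 5 crossed, chosen after seeing the data, 0 were higher with guide 5 than with guide 3. Over all genes the replicate block gave 2536 rises with both guides together, 2622 with guide 3 and 1696 with guide 5. The falls were 2810, 2668 and 1540. Between the guides 95 genes were higher with guide 5 and 56 lower. Some directions turned. Against control with guide 3, the log2 change of JUND, a called rise of 0.99, was -0.19 after GC and length correction, FOSB was -0.41 with quantile normalization, -0.16 after the correction and -0.059 to 0.66 without 1 library each, BATF3 was -0.029 with quantile normalization, and ATF3 was -0.33 with quantile normalization, -0.0162 with common sum scaling, -0.26 with library weights, and -0.23 to 0.27 without 1 library each. For guide 5 against guide 3, the correction gave 0.059 for JUNB (-0.44 without it), 0.48 for JUND, 0.018 for FOSL2 and 0.076 for MAFG, and common sum scaling 0.020 for FOSL2. Without 1 library each, it was -0.40 to 0.081 for JUND, -0.16 to 0.22 for FOS and -0.12 to 0.0097 for FOSL2. The causes were not tested. Depth limits FOSB, ATF3 and BATF3, with 1 read worth up to 0.0540 CPM.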
